A study of Mus musculus with 2 samples.

Results

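Myeloid cells are made and kept alive by a small set of growth factors and their receptors. The 8 genes examined here are the ligand genes *Csf1* (M-CSF) and *Csf2* (GM-CSF) and the receptor genes *Csf1r*, *Csf2ra*, *Csf2rb*, *Csf3r*, *Flt3* and *Kit*, which were chosen by name as 8 of the 19960 genes listed for the series. In the listed features, 7 of them carried their symbol and 1, *Csf1r*, carried only its Ensembl identifier. They were followed across 30 named classes of cells in single-cell RNA-seq libraries of the mouse omentum, the peritoneal fat fold that holds the lymphoid clusters called milky spots. The study made 1 library for each genotype, WT and *Postn*-DTR. All mice had received diphtheria toxin (DT) and were taken 5 days later, and each library held cells pooled from the omenta of 3 mice. *Postn*-DTR mice are C57BL/6 mice heterozygous for a diphtheria toxin receptor cassette that was placed in the *Postn* gene by CRISPR/Cas9. DT in these mice was meant to remove *Aldh1a2*+ fibroblastic reticular cells, and *Postn* is also used by other mesenchymal lineages. With 1 pooled library per group no test, SE or p-value could be computed, and the intervals below are 95% intervals that cover counting error only.

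M-CSF, through the receptor tyrosine kinase encoded by *Csf1r*, sustains monocytes and macrophages, and IL-34 is another ligand of the same receptor. GM-CSF binds a private alpha chain (*Csf2ra*) that pairs with a beta chain (*Csf2rb*), which also serves the receptors for IL-3 and IL-5. G-CSF acts through *Csf3r* on the neutrophil lineage, FLT3 is the receptor that dendritic cell (DC) development depends on, and KIT, the receptor for stem cell factor, marks progenitors, mast cells and some innate lymphoid cells (ILCs).

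The WT library held 8654 cells and the *Postn*-DTR library 5727 cells after filtering, with 80152174 and 81011234 unique molecular identifiers (UMIs, each standing for a captured transcript). The median cell held 5635 and 8472 UMIs. Median depth within a class was lower in *Postn*-DTR in many classes, such as tissue-type macrophage-like cells (4487 and 1998 UMIs), so that shares of cells with a UMI are given after thinning each cell to 1000 UMIs. *Ptprc*, which encodes the leukocyte antigen CD45, gave a UMI in 90.8% of cells in the WT library, against 77.0% in the other. *Postn* itself gave 51 UMIs in the 42 WT stromal cells and 9 UMIs in the 17 *Postn*-DTR stromal cells. The libraries shared 65 cell barcodes. Plasma-like cells made up 6.61% of the WT and 35.8% of the *Postn*-DTR library, and mature neutrophil-like cells 0.532% and 8.28%.

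Classes are called "X-like" from marker genes, and none of the 8 genes was a marker or a feature used for clustering. The level of a gene in a class is the mean over its cells of UMIs per 10000 UMIs of the cell. Levels were compared between classes and libraries, and the genes were not ranked against each other by level. Summed over the cells kept, the genes had, in WT and then in *Postn*-DTR, 433 and 238 UMIs for *Csf1*, 615 and 239 for *Csf2*, 3222 and 1458 for *Csf1r*, 5104 and 3922 for *Csf2ra*, 4085 and 5432 for *Csf2rb*, 1210 and 2503 for *Csf3r*, 1520 and 382 for *Flt3*, and 1478 and 592 for *Kit*. Each gene had its own pattern over the classes. The order of the 22 classes with at least 20 cells in each library was alike between libraries, with a Spearman correlation, given as a description, from 0.542 for *Csf1* to 0.896 for *Csf2rb*. The class with the highest level was the same in both libraries for *Csf1*, *Csf2*, *Csf2rb*, *Csf3r*, *Flt3* and *Kit*, and differed for *Csf1r* and *Csf2ra*.

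**Figure D1:**
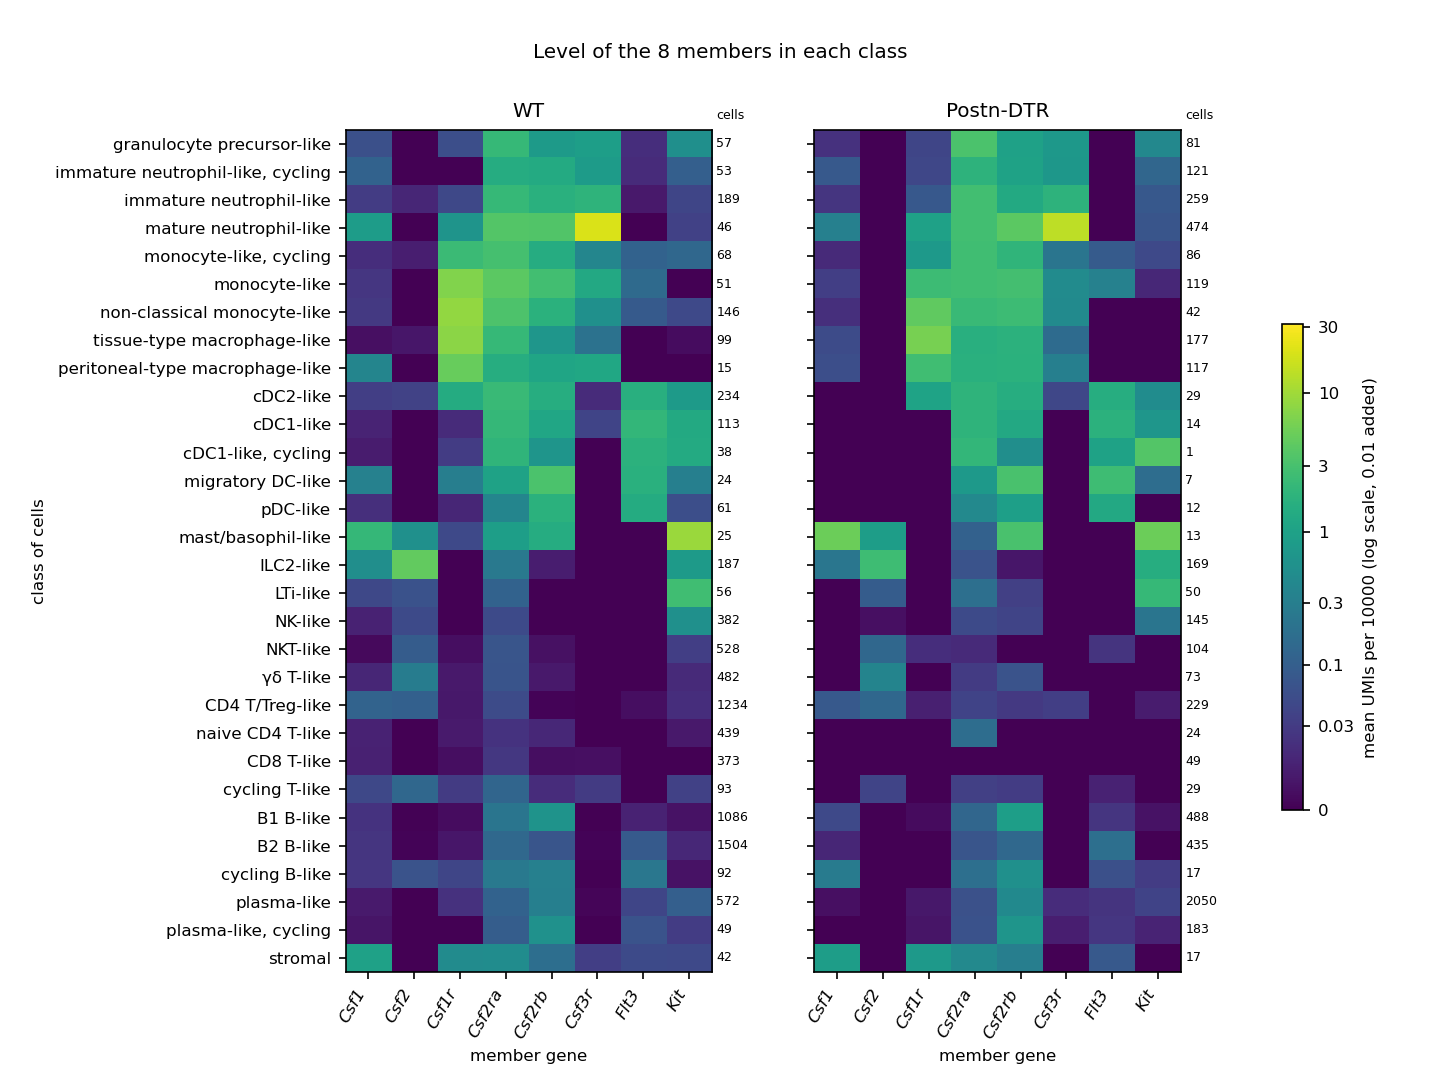
Level of the 8 genes (columns) in each of the 30 named classes (rows) in WT and *Postn*-DTR, as mean UMIs per 10000 on a log colour scale, with the number of cells of each class at the right. *Csf3r* is brightest in mature neutrophil-like cells (20.3 and 14.3), *Csf2* in ILC2-like cells (4.56 and 2.55) and *Flt3* in the DC classes, and rows with few cells rest on few UMIs.

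Among the ligands, *Csf2* (ENSMUSG00000018916, chromosome 11, 54247271 to 54249667, minus strand, GRCm38/mm10) came mainly from group 2 innate lymphoid (ILC2)-like cells. These cells were 2.16% of the WT and 2.95% of the *Postn*-DTR library, and held 55.0% (50.9% to 58.9%, exact Clopper-Pearson interval) and 73.2% (67.1% to 78.7%) of its UMIs. The 187 ILC2-like cells of WT held 338 *Csf2* UMIs, a level of 4.56, and the 169 of *Postn*-DTR held 175, a level of 2.55. The log2 ratio of *Postn*-DTR over WT was -0.84, and that of the summed UMIs was -0.46 (-0.73 to -0.19). Few cells carried the transcript, since 39 WT and 21 *Postn*-DTR ILC2-like cells had a UMI and the 5 cells with the most held 55.6% and 54.9% of the *Csf2* UMIs of the class. After thinning, 13.4% and 7.74% of ILC2-like cells had a *Csf2* UMI, and the interval of the log2 ratio of these shares spanned 0 (-1.72 to 0.12). At 2000 UMIs per cell the shares were 14.3% and 12% (log2 ratio -0.25, -1.06 to 0.56). In B2 B-like cells (median depth 4389 and 3206 UMIs, against 3865 and 3172 in ILC2-like cells), taken as the background of free RNA, the thinned share was 0 of 1494 and 0 of 431 cells, which allows up to 0.201% and 0.696%.

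T cell classes gave most of the other *Csf2* UMIs. In γδ T-like cells the level was 0.287 in WT and 0.374 in *Postn*-DTR (79 and 15 UMIs), a log2 ratio of 0.38 whose interval spanned 0 (-0.58 to 1.13 for the summed UMIs). CD4 T/Treg-like cells had 0.109 and 0.137 (90 and 34 UMIs), with a log2 ratio of 0.33, but 1.27 (0.65 to 1.85) for the summed UMIs. Without the cells of highest doublet score the ratio turned to -1.05. A single cell held 39 of the 90 WT UMIs and another 25 of the 34 *Postn*-DTR UMIs in that class. In both libraries *Csf2* was therefore highest in ILC2-like cells, with intervals apart from the γδ T-like cells next in order, while the γδ T-like and CD4 T/Treg-like cells could not be placed apart from each other in both. An antisense gene, *Gm12223*, overlaps *Csf2*.

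*Csf1* (ENSMUSG00000014599, chromosome 3, 107741048 to 107760469, minus strand) had no such single source. Mast/basophil-like cells, 0.289% and 0.227% of the libraries, held 17.6% and 18.1% of its UMIs, and stromal cells, 0.485% and 0.297% of the libraries, held 17.6% and 16.8%. The mast/basophil-like cluster came apart by its marker sums, with no cell near the division: the 8 WT and 5 *Postn*-DTR cells richer in basophil markers held 75 and 43 *Csf1* UMIs (6.50 and 13.4 UMIs per 10000), and the 17 and 8 cells richer in mast cell markers held 1 and 0. A *Csf1* UMI was present in all 8 basophil-type cells from WT, and in 3 of the 5 from *Postn*-DTR. This division was chosen after the values were seen, and under 20 cells lie on either side of it. Of the *Postn*-DTR cells in this cluster, 30.8% were among the highest doublet scores, against 0% in WT. The *Csf1* share of the cluster fell without them, as given at the end, so the *Postn*-DTR values are less certain. In WT, *Csf1* was thus found in basophil-type cells and hardly in mast-type cells of the same cluster.

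The 42 stromal cells of WT held 76 *Csf1* UMIs (level 0.981) and the 17 of *Postn*-DTR held 40 (level 0.880). Stromal cells that were left in the *Postn*-DTR library thus had a *Csf1* level near that of WT, and too few of them were present for a ratio to be called. Mature neutrophil-like cells had 0.851 and 0.326 UMIs per 10000, but the WT value rested on 10 UMIs in 4 cells. They held 2.31% of the *Csf1* UMIs of WT and 14.3% of those of *Postn*-DTR.

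ILC2-like cells had a *Csf1* level of 0.532 in WT and 0.223 in *Postn*-DTR (44 and 17 UMIs), a log2 ratio of -1.25. For the summed UMIs it was -0.88 (-1.78 to -0.04), short of 2-fold. All genes with 50 or more UMIs in a class (both libraries summed) served as background, and in ILC2-like cells 3.24% of them were at least 2-fold lower in *Postn*-DTR. A *Csf1* UMI was present in 6.45% and 1.79% of thinned ILC2-like cells, against 0 of 1494 and 0 of 431 B2 B-like cells. B1 B-like cells went the other way, from 0.0226 to 0.0494 (28 and 22 UMIs), a log2 ratio of 1.13, with 0.29 to 2.02 for the summed UMIs, where 2.15% of genes were at least 2-fold higher. The 22 *Postn*-DTR UMIs lay in 13 cells, 1 of which held 5. B2 B-like cells had a level of 0.0243 and 0.0141, so the WT level of B1 B-like cells was no higher than theirs. After thinning, 0.369% and 0.410% of B1 B-like cells had a *Csf1* UMI, and at 2000 UMIs 5 of 1082 and 5 of 487. Only 1 other class, CD4 T/Treg-like cells, had enough *Csf1* UMIs to be compared (0.119 and 0.0840, log2 ratio -0.50, -1.56 to 0.78), and its ratio ran from -1.27 at resolution 1.6 to 0.59 after thinning to 2000 UMIs.

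**Figure D2:**
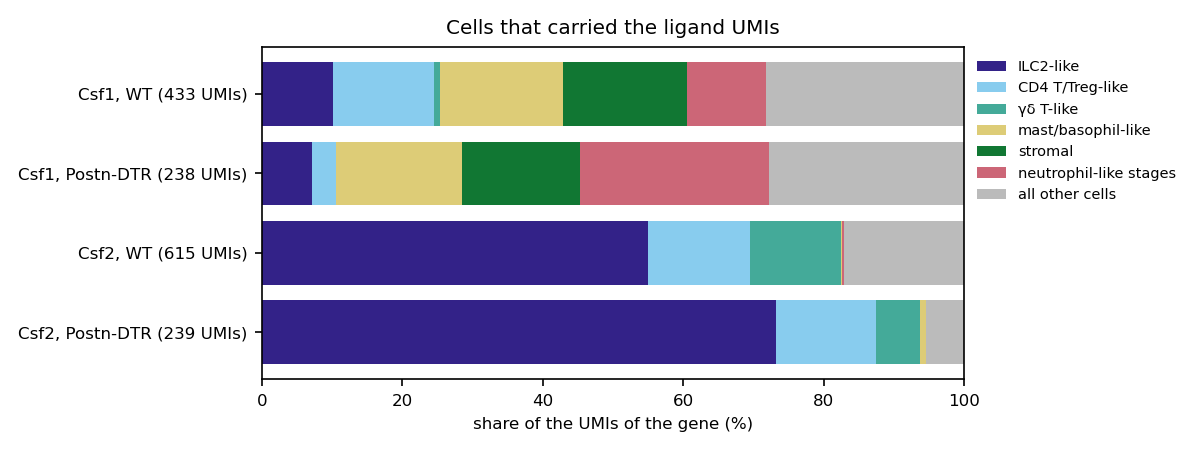
Share of the UMIs of *Csf1* and *Csf2* (percent, x axis) that came from each class of cells, with 1 bar per gene and library. ILC2-like cells fill 55.0% (WT) and 73.2% (*Postn*-DTR) of the *Csf2* bars, whereas the *Csf1* bars are spread over mast/basophil-like, stromal, lymphoid and neutrophil-like cells.

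Other ligands of these receptors were taken from a list of genes that act with them. *Il34* was found mainly in stromal cells, with 55 UMIs (level 0.662) in those of WT and 3 UMIs (level 0.0796) in those of *Postn*-DTR. *Kitl*, encoding stem cell factor, stood at 0.816 and 0.304 in stromal cells (73 and 14 UMIs) and at 0.492 and 0.193 in tissue-type macrophage-like cells (20 and 7 UMIs). Both were lower in the *Postn*-DTR stromal cells, which numbered 17. *Flt3l*, the FLT3 ligand gene, was spread over T, NK and ILC2-like cells, with 0.795 and 1.19 in CD4 T/Treg-like cells (463 and 106 UMIs). *Il5*, whose product acts through the beta chain, stood at 0.412 and 0.819 in ILC2-like cells (42 and 76 UMIs). *Csf3*, the G-CSF gene, gave 0 UMIs in the 46 WT and 12 UMIs in the 474 *Postn*-DTR mature neutrophil-like cells. The WT cells were too few for these counts to be compared.

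*Csf1r* (ENSMUSG00000024621, chromosome 18, 61100598 to 61132149, plus strand) was read in monocyte-like, macrophage-like and cDC2-like cells. Its level was 7.83 in WT and 5.96 in *Postn*-DTR tissue-type macrophage-like cells (419 and 293 UMIs), 8.66 and 4.37 in non-classical monocyte-like cells (1084 and 123 UMIs), and 6.91 and 2.52 in monocyte-like cells (335 and 263 UMIs). Monocyte-like cells in cycle had 2.39 and 0.755 (455 and 217 UMIs) and cDC2-like cells 1.42 and 1.07 (391 and 31 UMIs). Peritoneal-type macrophage-like cells, of which WT held 15, had 4.92 and 2.65. All of these were lower in *Postn*-DTR, by different amounts. B2 B-like cells, as background, had a level of 0.00612 and 0.

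Monocyte-like cells stood out by size, with a *Csf1r* log2 ratio of -1.46 (-1.80 to -1.32 for the summed UMIs) and, in cycle, of -1.66 (-1.61 to -1.13). In these classes 4.69% and 3.86% of genes with at least 50 UMIs were at least 2-fold lower. The thinned share of cells with a *Csf1r* UMI was 47.1% and 17.6% in monocyte-like cells (median depth 9220 and 8826 UMIs) and 27.9% and 9.30% in those in cycle. For B2 B-like cells the share was 0.0669% in WT, with 0 of 431 cells in *Postn*-DTR, which allows up to 0.696%. The ratio in non-classical monocyte-like cells was -0.99 (-0.95 to -0.40 for the summed UMIs, whose own ratio was -0.67), just short of 2-fold, where 11.7% of genes were at least 2-fold lower. At resolution 1.6 it was -1.15. Tissue-type macrophage-like cells had the ratio nearest to 0 among these classes, at -0.39 (-0.46 to -0.02). Their thinned share of cells with a *Csf1r* UMI was 46.9% and 45.2%, but 3 WT and 51 *Postn*-DTR cells were too shallow to be thinned. In cDC2-like cells the ratio was -0.41 (-0.98 to 0.12).

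Markers of other cells moved with these values. In monocyte-like cells the summed level of the 10 mature neutrophil markers was 14.8 in WT and 50.7 in *Postn*-DTR (3 and 0 of them at 0), and that of the 10 tissue-type macrophage markers 14.2 and 26.2 (4 and 1 at 0), while the 9 monocyte markers summed to 124 and 107. In monocyte-like cells in cycle the neutrophil markers summed to 10.2 and 41.4 (1 and 0 at 0). In non-classical monocyte-like cells the tissue-type macrophage markers summed to 77.9 and 186.5 (0 and 1 at 0) and the monocyte markers to 44.8 and 25.2. Their part in the *Csf1r* values was not tested. Monocyte-like cells also came apart by library at a finer clustering resolution of 1.6, where a single WT cell was left in the class and no ratio could be had. None could be had either with the 8 genes among the clustering features. Under the settings that gave a value the *Csf1r* ratio of monocyte-like cells lay between -1.58 and -1.41.

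*Csf1r* was also read outside the monocyte line. Stromal cells had 0.484 and 0.754 (41 and 20 UMIs). These lay in 13 of 42 WT and 6 of 17 *Postn*-DTR cells, and a single cell held 18 and 7 of them. Mature neutrophil-like cells had a *Csf1r* level of 0.629 and 0.996 (11 and 124 UMIs), a log2 ratio of 0.66 whose interval spanned 0 (-0.46 to 1.47). Plasma-like cells had 0.0216 and 0.00673 (50 and 30 UMIs), a ratio of -1.68, where 7.56% of genes were at least 2-fold lower, but the ratio was 0.50 once the 519 WT and 344 *Postn*-DTR cells with the highest doublet scores were left out. *Csf1r* was lower in *Postn*-DTR in 6 of its 7 classes compared. Non-classical monocyte-like cells held 33.6% of all *Csf1r* UMIs in WT and 8.44% in *Postn*-DTR, and peritoneal-type macrophage-like cells 2.17% and 15.9%. *Hmgxb3* overlaps *Csf1r* on the opposite strand.

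**Figure D3:**
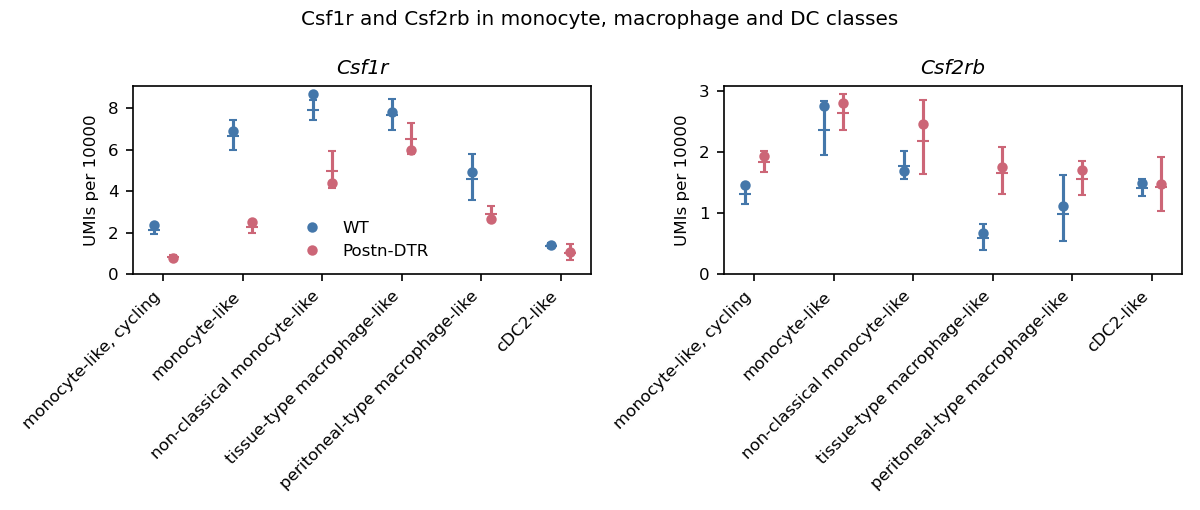
Level of *Csf1r* (left) and *Csf2rb* (right) in monocyte-like, macrophage-like and cDC2-like classes, in UMIs per 10000. Points are means over cells, dashes the summed UMIs with their exact 95% Poisson interval, WT in blue and *Postn*-DTR in red. *Csf1r* is lower in *Postn*-DTR in each class drawn, and *Csf2rb* is higher in tissue-type macrophage-like cells (0.680 and 1.75).

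The GM-CSF receptor chains went in opposite directions in tissue-type macrophage-like cells. *Csf2ra* (ENSMUSG00000059326, chromosome 19, 61223957 to 61228429, minus strand) was 2.23 in WT and 1.59 in *Postn*-DTR tissue-type macrophage-like cells (134 and 68 UMIs), a log2 ratio of -0.50 (-1.15 to -0.27). *Csf2rb* (ENSMUSG00000071713, chromosome 15, 78325752 to 78353847, plus strand) was 0.680 and 1.75 there (32 and 75 UMIs), a ratio of 1.36 (0.89 to 2.15). In this class 5.14% of genes were at least 2-fold higher. The alternatives put the *Csf2rb* ratio between 1.13 and 1.65. The thinned share of these cells with a *Csf2rb* UMI was 4.17% and 16.7%, against 0.469% and 0.928% of B2 B-like cells. It left out 3 WT and 51 *Postn*-DTR macrophage-like cells that were too shallow. At 2000 UMIs per cell, 12 of 83 WT and 22 of 88 *Postn*-DTR tissue-type macrophage-like cells had a *Csf2rb* UMI, a smaller ratio. Plasma markers summed to 2.50 and 7.87 in tissue-type macrophage-like cells (none at 0) and mature neutrophil markers to 37.8 and 25.9 (1 and 1 at 0), and their part was not tested. Peritoneal-type macrophage-like cells, with 15 in WT, had 1.49 and 1.65 of *Csf2ra* (23 and 146 UMIs) and 1.11 and 1.70 of *Csf2rb* (15 and 125 UMIs), so that both values were higher in *Postn*-DTR there.

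The alpha chain gene was read in all neutrophil, monocyte, macrophage and DC classes and, averaged over both libraries, was highest in monocyte-like cells (4.17 and 2.70; 208 and 313 UMIs) and mature neutrophil-like cells (3.67 and 2.75; 62 and 390 UMIs). Its log2 ratio was -0.63 (-0.88 to -0.36) in the former and -0.41 (-0.80 to -0.004) in the latter. Earlier stages of the neutrophil line differed in the other direction, with 2.18 and 3.18 in granulocyte precursor-like cells (463 and 774 UMIs, ratio 0.54, 0.45 to 0.79), 1.47 and 1.83 in immature neutrophil-like cells in cycle (0.32, 0.12 to 0.58) and 2.23 and 2.75 in immature neutrophil-like cells (0.31, 0.02 to 0.42). Across the 13 classes compared, *Csf2ra* was lower in *Postn*-DTR in 10 and higher in these 3 stages of granulopoiesis, and in none of them by 2-fold. After thinning to 2000 UMIs the ratio passed 2-fold in B2 B-like (-1.61) and cDC2-like cells (-1.29).

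Among classes with at least 20 cells in each library, *Csf2rb* was highest in mature neutrophil-like cells (3.56 and 4.17; 53 and 537 UMIs) and monocyte-like cells (2.76 and 2.80; 119 and 307 UMIs), which did not differ in order beyond their intervals. *Csf2rb* was higher in *Postn*-DTR in 10 of its 13 classes compared and lower in 3. The beta chain was also read well outside the myeloid cells. B1 B-like cells had 0.617 and 0.900 (635 and 325 UMIs, log2 ratio 0.54, 0.35 to 0.74) and plasma-like cells 0.319 and 0.452 (548 and 2129 UMIs, 0.50, 0.30 to 0.58). Plasma-like cells held 13.4% of all *Csf2rb* UMIs in WT and 39.2% in *Postn*-DTR. *Il5ra*, the private chain of the IL-5 receptor that pairs with this beta chain, was at 0.503 and 0.640 in plasma-like cells (686 and 2710 UMIs) and at 0.496 and 0.492 in B1 B-like cells. B2 B-like cells had 0.0730 and 0.144 of *Csf2rb* (58 and 34 UMIs, ratio 0.98), just short of 2-fold. Under the alternatives this ratio lay between 0.94 and 1.53, and for the summed UMIs it was 1.40. CD4 T/Treg-like cells (1234 and 229 cells) held 1 and 2 *Csf2rb* UMIs. B2 B-like cells thus were not at the lowest level for this gene, and their *Csf2rb* shares are no measure of free RNA alone.

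Mice carry a near copy of *Csf2rb*, *Csf2rb2* (ENSMUSG00000071714, chromosome 15, 78282507 to 78305721), which encodes a beta chain used by the IL-3 receptor. The first 180 coding bases of both, from the GENCODE transcripts of GRCm38, are shown because the labels name a 5′ kit. The study's methods name a 3′ kit, and 258 and 293 bases precede the start codons in these transcripts. How many reads fell on the bases shown is not known. Capitals mark the bases that differ.
Csf2rb: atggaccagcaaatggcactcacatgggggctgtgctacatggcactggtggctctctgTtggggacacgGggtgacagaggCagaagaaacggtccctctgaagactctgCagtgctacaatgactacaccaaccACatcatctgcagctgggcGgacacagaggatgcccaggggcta
Csf2rb2: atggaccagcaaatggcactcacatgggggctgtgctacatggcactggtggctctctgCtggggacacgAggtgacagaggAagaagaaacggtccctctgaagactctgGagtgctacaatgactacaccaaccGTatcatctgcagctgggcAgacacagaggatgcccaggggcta
They differed at 7 of 180 bases, and the first 59 were identical. Of the 5178 distinct stretches of 91 bases in *Csf2rb* transcripts, 387 (7.47%) also occurred in *Csf2rb2*, so that a part of the reads of either gene could have come from the other or have been left uncounted. The genes nevertheless differed in place. Among whole classes, by mean level, *Csf2rb2* was highest in plasmacytoid DC (pDC)-like cells (3.30 and 3.29; 173 and 28 UMIs), where *Csf2rb* had 1.70 and 0.925, and stood at 0.300 and 0.508 in mature neutrophil-like cells (7 and 66 UMIs). Cells richer in basophil markers had 3.28 and 7.36 of *Csf2rb2* and 4.07 and 7.99 of *Csf2rb*.

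UMIs of both GM-CSF receptor chains in the same cell were counted after thinning to 2000 UMIs. This held for 13.9% of WT mature neutrophil-like cells (5 of 36, interval 4.67% to 29.5%) and 19.7% in *Postn*-DTR (69 of 351, 15.6% to 24.2%). Monocyte-like cells had both in 17.6% (8.40% to 30.9%) and 9.24% (4.71% to 15.9%), and non-classical monocyte-like cells in 17.0% and 7.50%, with overlapping intervals in each pair. In B2 B-like cells the share was 0.0688% in WT. No ILC2-like cell had both (0 of 182 and 0 of 150), which allows up to 1.65% and 2%, nor any CD4 T/Treg-like cell (0 of 1174 and 0 of 195, up to 0.256% and 1.54%). The alpha chain alone was found in 15 of the 182 WT and 2 of the 150 *Postn*-DTR ILC2-like cells, and the beta chain in 0 and 1.

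*Csf3r* (ENSMUSG00000028859, chromosome 4, 126024550 to 126044440, plus strand) followed neutrophil stage. Its level was 0.895 in WT and 0.731 in *Postn*-DTR granulocyte precursor-like cells, 0.817 and 0.692 in immature neutrophil-like cells in cycle, 1.10 and 1.58 in the immature cluster led by *Camp* and *Ltf*, and 2.67 and 2.03 in that led by *Mmp8* and *Mmp9*. The mature cluster with *Retnlg* among its leading genes had 7.24 and 5.73, and the other mature cluster, led by *Steap4*, had 29.5 and 18.5. Both libraries thus showed the same steep difference between stages. Other genes changed along the stages in their own ways. *Kit* was 0.537 and 0.423 in precursor-like cells and at most 0.133 in every later cluster, while *Csf1r* was at most 0.113 up to the *Mmp8* cluster and reached 0.919 and 1.27 in the *Steap4* cluster.

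As a class, the 46 mature neutrophil-like cells of WT held 253 *Csf3r* UMIs (level 20.3) and the 474 of *Postn*-DTR held 1693 (level 14.3). The log2 ratio was -0.50, and -0.33 (-0.52 to -0.13) for the summed UMIs. Median depth was 3095 and 2796 UMIs, and the thinned share of cells with a *Csf3r* UMI was 77.8% and 64.3%, against 0 of 1494 and 0 of 431 B2 B-like cells. At 2000 UMIs per cell the shares were 83.3% and 81.2%. These cells held 20.9% (18.6% to 23.3%) of the *Csf3r* UMIs in WT and 67.6% (65.8% to 69.5%) in *Postn*-DTR.

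**Figure D4:**
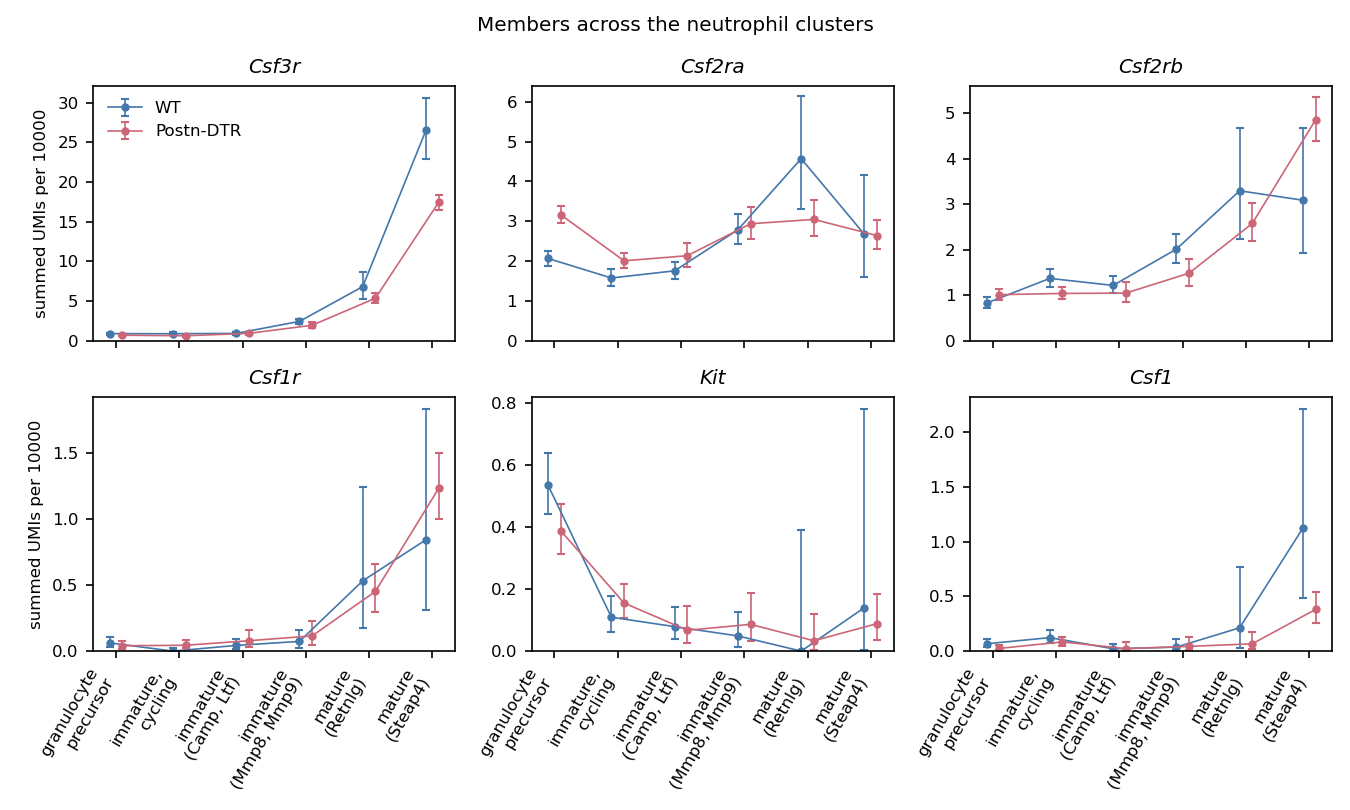
Summed UMIs per 10000 of 6 of the genes in the 6 neutrophil clusters, ordered from granulocyte precursor-like to mature, in WT (blue) and *Postn*-DTR (red), with exact 95% Poisson intervals. *Csf3r* climbs to its highest values in the mature clusters in both libraries, *Kit* is highest in the precursors, and the intervals of WT are wide in the mature clusters, which held 19 and 27 WT cells.

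*Csf3r* was lower in *Postn*-DTR in 7 of its 8 classes compared. In monocyte-like cells it was 1.27 and 0.486 (57 and 55 UMIs), a log2 ratio of -1.39 (-1.82 to -0.70), although the neutrophil markers were higher there in *Postn*-DTR, as given above. Monocyte-like cells in cycle had 0.390 and 0.221 (ratio -0.82, -1.50 to -0.47). The exception was plasma-like cells, where the libraries held 3 and 103 UMIs (levels 0.00108 and 0.0180), a ratio of 4.05 with a counting interval of 1.99 to 5.88, and 5.22% of genes were at least 2-fold higher. The 10 mature neutrophil markers summed to 0.267 and 4.35 in the same cells (1 and 0 of them at 0), and their part was not tested. After thinning to 1000 UMIs, *Csf3r* was present in 0 of 571 WT plasma-like cells and 3 of 2041 *Postn*-DTR ones. Too few of these UMIs remained for a ratio without the cells of highest doublet score.

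*Flt3* (ENSMUSG00000042817, chromosome 5, 147330741 to 147400489, minus strand) had its highest levels in the DC classes in both libraries. Its level was 2.10 in WT and 1.79 in *Postn*-DTR cDC1-like cells (439 and 41 UMIs), 1.6 and 1.52 in cDC2-like cells (461 and 53 UMIs), 1.40 and 1.27 in pDC-like cells (79 and 10 UMIs) and 1.66 and 2.58 in migratory DC-like cells (36 and 31 UMIs). Only cDC2-like cells had enough cells in both libraries for a comparison, with a log2 ratio of -0.08 and an interval for the summed UMIs of -0.31 to 0.54. The ratio was 0.13 for the summed UMIs and 0.38 after thinning to 2000 UMIs, and after thinning to 1000 UMIs 13.7% of WT and 3.45% of *Postn*-DTR cDC2-like cells had a *Flt3* UMI. DCs were fewer in *Postn*-DTR: 29 against 234 cDC2-like cells and 14 against 113 cDC1-like cells. DC-like cells of the cDC1 and cDC2 classes held 28.9% and 30.3% of *Flt3* UMIs in WT, and 10.7% and 13.9% in *Postn*-DTR. Plasma-like cells, at a low level, held more than either class in *Postn*-DTR (125 of 382 UMIs, against 87 of 1520 in WT).

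Outside DCs, *Flt3* was 0.0867 and 0.179 in B2 B-like cells (66 and 27 UMIs), a log2 ratio of 1.05 (0.18 to 1.55), where 1.95% of genes were at least 2-fold higher. The ratio was 0.88 for summed UMIs and 0.67 after thinning to 2000 UMIs, so that the 2-fold call did not hold there. In plasma-like cells it was 0.0439 and 0.0233 (87 and 125 UMIs, ratio -0.92, -1.40 to -0.58, and -1.61 after thinning to 2000 UMIs). An antisense gene, *Gm26597*, overlaps *Flt3*.

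*Kit* (ENSMUSG00000005672, chromosome 5, 75574916 to 75656722, plus strand) divided the mast/basophil-like cluster the other way from *Csf1*. Cells richer in mast cell markers had a level of 13.4 in WT and 8.32 in *Postn*-DTR (71 and 15 UMIs), and those richer in basophil markers 0.478 and 0.148 (9 and 1 UMIs). Among classes with enough cells, lymphoid tissue inducer (LTi)-like cells were highest, with 2.66 and 2.17 (79 and 52 UMIs, log2 ratio -0.29, -0.82 to 0.24). After thinning, the number of LTi-like cells with a *Kit* UMI was 12 of 56 (WT) and 10 of 50 (median depth 4840 and 4299 UMIs), against 0.0669% of WT B2 B-like cells. LTi-like cells thus did not differ between the libraries beyond counting error.

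Lymphoid classes that differed in mean *Kit* level did so in both directions. ILC2-like cells had 0.799 and 1.49 (66 and 81 UMIs), a log2 ratio of 0.90 (0.30 to 1.28), and NK-like cells 0.557 and 0.220 (96 and 19 UMIs), a ratio of -1.34 (-1.76 to -0.25), where 1.88% of genes were at least 2-fold lower. The NK ratio was -0.97 for the summed UMIs. By mean level, *Kit* and *Il5* were thus higher in *Postn*-DTR ILC2-like cells and *Csf1* and *Csf2* lower. For *Csf2* the thinned shares of cells with a UMI did not differ beyond counting error. Those for *Kit* in ILC2-like cells were 6.99% (3.77% to 11.7%) and 11.3% (6.95% to 17.1%), with overlapping intervals. Granulocyte precursor-like cells had a *Kit* ratio of -0.34 (-0.87 to -0.06), which was -1.51 after thinning to 2000 UMIs.

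A pair of further classes passed 2-fold for *Kit*. Plasma-like cells had 0.104 and 0.0413 (178 and 188 UMIs), a log2 ratio of -1.34 (-1.74 to -1.14). Monocyte-like cells in cycle had 0.140 and 0.0498 (40 and 22 UMIs), a ratio of -1.49 (-1.98 to -0.37), which became 0.64 without the cells of highest doublet score. *Kit* was lower in *Postn*-DTR in 6 of its 8 classes compared.

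Over all 8 genes, 58 pairs of gene and class could be compared. In 37 of them the level was lower in *Postn*-DTR and in 21 higher, with 8 at least 2-fold lower and 4 at least 2-fold higher. Of all 130967 pairs of gene and class with at least 50 UMIs, 5.12% were at least 2-fold lower and 3.24% at least 2-fold higher. The counting interval lay below 0 in 26 of the 58 and above 0 in 14, against 13.8% and 12.2% of all pairs. Such intervals narrow as UMIs rise, and all pairs were not matched to the 58 in UMIs beyond that minimum. These shares therefore cannot show whether the 8 genes differed more often than others. The 8 lower were *Csf1* in ILC2-like cells, *Csf1r* in both monocyte-like classes and in plasma-like cells, *Csf3r* in monocyte-like cells, and *Kit* in NK-like, plasma-like and cycling monocyte-like cells. The 4 higher were *Csf1* in B1 B-like, *Csf2rb* in tissue-type macrophage-like, *Csf3r* in plasma-like and *Flt3* in B2 B-like cells. The direction was lower in most classes for *Csf1r*, *Csf2ra*, *Csf3r* and *Kit*, and higher in most classes for *Csf2rb*.

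**Figure D5:**
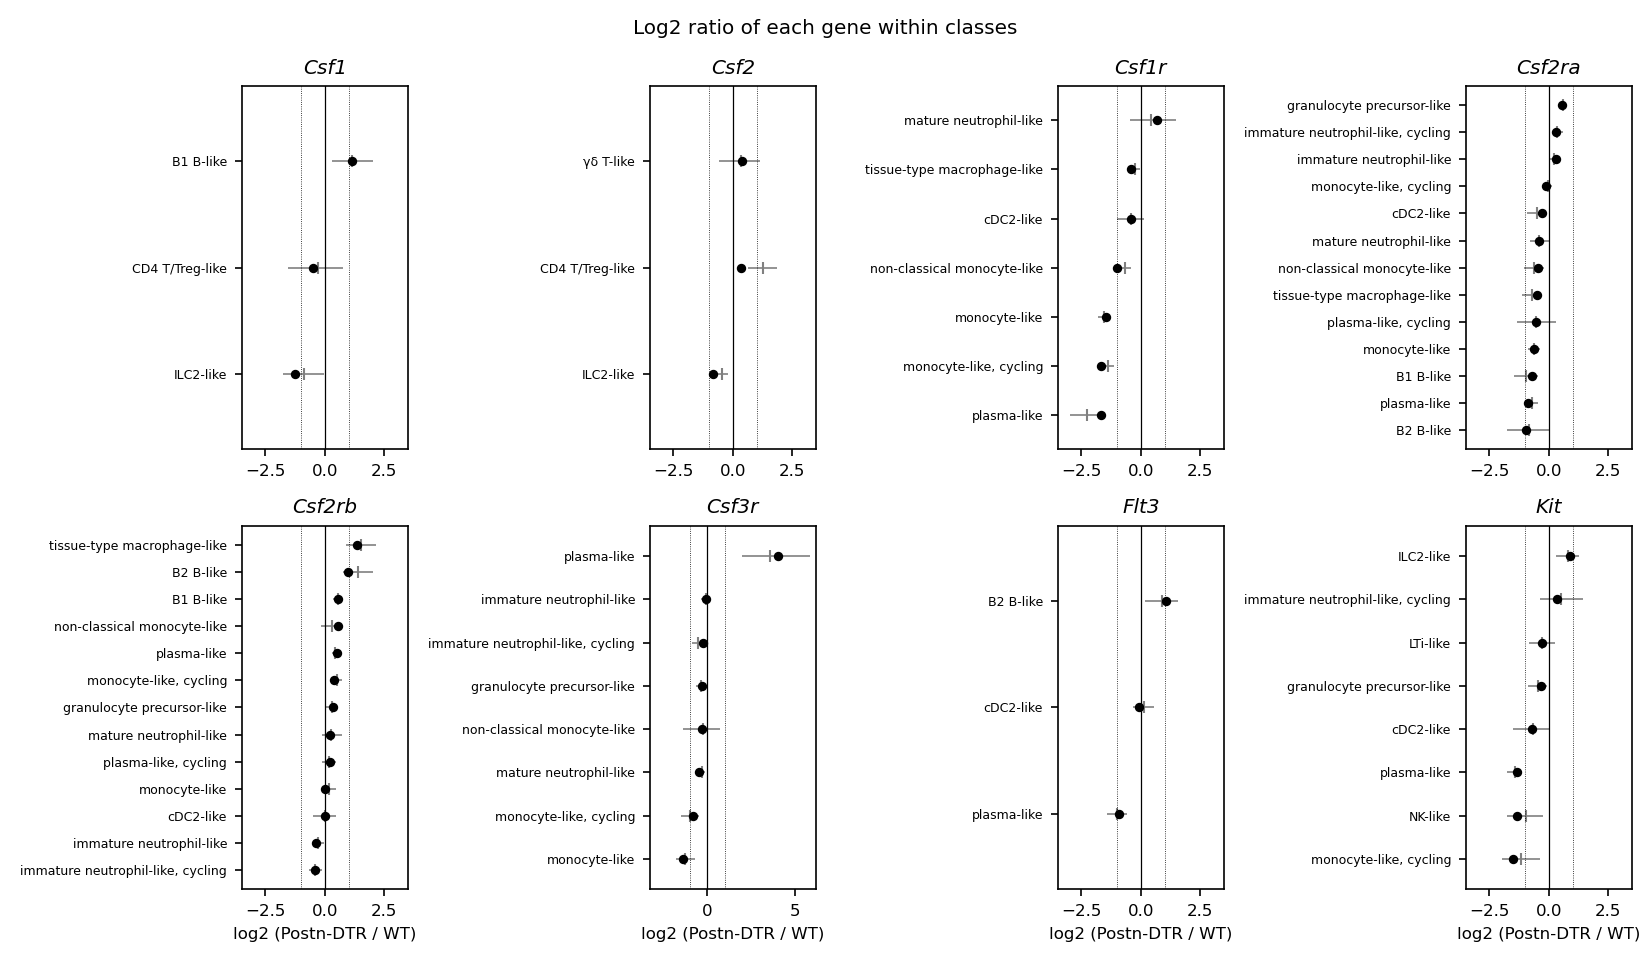
Log2 ratio of *Postn*-DTR over WT for each gene in each class compared. Black points are ratios of mean levels, grey ticks and lines the ratios of summed UMIs with their 95% counting interval, and dotted lines mark 2-fold. *Csf1r* points lie left of 0 except in mature neutrophil-like cells, and most *Csf2rb* points lie right of 0.

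Values over all cells of a library also depend on which classes it holds. The log2 ratio of the mean level over all cells was 2.79 for *Csf3r*, 1.38 for *Csf2rb*, 0.62 for *Csf2ra*, 0.22 for *Csf1r*, 0.10 for *Csf1*, -0.35 for *Kit*, -0.66 for *Csf2* and -1.06 for *Flt3*. With the *Postn*-DTR class levels weighted by the class shares of WT, the ratio became -0.28 for *Csf3r*, 0.37 for *Csf2rb*, -0.22 for *Csf2ra*, -0.68 for *Csf1r*, -0.22 for *Csf1*, -0.30 for *Kit*, -0.42 for *Csf2* and 0.17 for *Flt3*. By mean level, *Csf3r*, *Csf2ra*, *Csf1r* and *Csf1* were thus higher over all *Postn*-DTR cells and lower at equal class shares, and *Flt3* was the reverse, whereas *Kit* and *Csf2* were lower and *Csf2rb* higher both ways. For summed UMIs, where cells of high depth weigh more, *Csf2ra* (-0.40), *Csf1r* (-1.16) and *Csf1* (-0.88) were lower over all *Postn*-DTR cells too.

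Genes that act with these receptors were read from a list of 38, of which 36 were analysed here. In mature neutrophil-like cells 0 of the 15 with at least 100 UMIs differed by 2-fold, where 2.13% of all genes with as many UMIs were lower and 7.84% higher. Of 18 in monocyte-like cells, 1 was higher (*Socs3*, a feedback inhibitor of cytokine signalling, log2 ratio 1.15) and 2 lower (among them *Cebpa*, a myeloid transcription factor, -1.01), where 3.36% and 3.20% of all genes were. Of 21 in monocyte-like cells in cycle, 1 was higher and 1 lower, against 1.30% and 2.32% of all genes. The median log2 ratio of the list was 0.12, -0.12 and -0.11 in these 3 classes.

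Tissue-type macrophage-like and cDC2-like cells had 5 and 4 genes of the list past 2-fold. Of 15 in tissue-type macrophage-like cells, 3 were higher (*Osm*, encoding the cytokine oncostatin M, 1.81, *Inpp5d*, a lipid phosphatase, 1.16, and *Stat3* 1.11) and 2 lower (the phosphatase gene *Ptpn6* -1.14 and the ubiquitin ligase gene *Cbl* -1.02), against 4.90% and 4.25% of all genes. Of 16 in non-classical monocyte-like cells, 1 was higher and 1 lower (*Ptpn6*, -1.42), against 2.79% and 8.13%. Of 20 in cDC2-like cells, *Irf8*, a transcription factor of DCs, and *Socs3* were higher (2.62 and 1.01) and 2 were lower (among them *Cbl*, -1.29), against 2.78% and 8.93%. The medians of the list were 0.51, -0.10 and 0.16. *Socs3* was higher in 2 of these classes.

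Genes whose level most resembled each of the 8 over 52 points (classes with at least 20 cells in a library) were ranked among 11933 genes by Pearson correlation of log2 levels with 0.05 added, given as a description in which points share libraries and depth. *Trem1*, *Msrb1* and *Dmxl2* were most like *Csf3r* (0.945 for *Trem1*), *Clec4a1*, *Clec4a3* and *Lrp1* most like *Csf1r* (0.942), *Alox5ap*, *Ifitm2* and *Ltbr* most like *Csf2ra* (0.939), and *Spi1*, *Sirpa* and *Skap2* most like *Csf2rb* (0.922). *Clec9a*, *Prss30* and *Ppp1r14a* were most like *Flt3* (0.858), *Il17rb*, *Pard3* and *Bmp7* most like *Csf2* (0.836), *Myo1d*, *Enah* and *Mfap5* most like *Csf1* (0.779), and *Rgs12*, *Slc6a13* and *Iftap* most like *Kit* (0.707). By this measure *Csf3r*, *Csf1r*, *Csf2ra* and *Csf2rb* had closer companions than *Csf1* and *Kit*. *Csf1* and *Kit* also had fewer UMIs in all (671 and 2070, against 3713 to 9517), and the part of this in the correlations was not tested. A lower level in a class cannot be told apart from a different mix of cells within it.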

How the data were processed

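The values deposited by the authors are on a natural log scale, ln(1 + UMIs per 10000 UMIs of the cell), rounded. Per the submitters' processing notes they used Cell Ranger 6.0.0 and mm10, and the labels name a 5′ kit, whereas the study's methods name a 3′ kit. Dividing by the smallest step of each cell gave UMIs whole within 0.1 for 99.954% (WT) and 99.894% (*Postn*-DTR) of values. Cells with 200 to 7500 genes and at most 25% mitochondrial UMIs were kept, following the study's filters. The cells were clustered jointly, with no correction for library, using Seurat 5.3.0 (sctransform 0.4.2, R 4.3.3), on 2922 variable features, 30 components and Louvain resolution 0.8 (1.0 for myeloid cells). Clusters were named from at least 3 markers at least 2-fold higher and in at least 10% of cells, with a score of at least 0.5 and a lead of 0.1. These naming thresholds were set after the clusters were seen, and 316 WT and 113 *Postn*-DTR cells stayed unnamed.

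Ratios needed 20 cells in each library and 50 UMIs in all (100 for listed genes), and called means at least 2-fold. Intervals are exact Poisson, exact binomial conditional on the total, or Clopper-Pearson. Ratios of shares have approximate log intervals. Doublets were kept: the automatic Scrublet (scanpy 1.11.5) threshold marked 2 WT and 106 *Postn*-DTR cells, so an alternative left out the 519 and 344 highest scores. The scripts were tested on simulated data. Genes named were the 8, listed genes past 2-fold in mature neutrophil, monocyte, macrophage and DC classes, and the 3 genes most like each (a few listed genes are counted but not reported here by name); the division of the mast/basophil-like cluster and other listed ligands and receptors with values were added after values were seen. The 8 genes, lists and markers were chosen with earlier results of these data known.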

Additional observations from a re-analysis of the deposited data

Results flagged for a closer look

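*Csf1* was flagged because its log2 ratio of *Postn*-DTR over WT passed 2-fold in opposite directions in different cells: 1.13 in B1 B-like cells and -1.25 in ILC2-like cells. *Csf3r* was flagged for the same reason, with 4.05 in plasma-like cells and -1.39 in monocyte-like cells. With 1 library per group the difference between the classes was not tested. The *Csf1* values rest on 28 WT and 22 *Postn*-DTR UMIs in B1 B-like cells and on 44 and 17 in ILC2-like cells, and the *Csf3r* value in plasma-like cells on 3 WT UMIs.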

How the results depend on the processing

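No paired analysis was possible because each group had 1 library. Of 176 values recomputed under another setting, 137 stayed within the counting interval or within 1.5 times the count, 38 moved further, in some cases across 0, and 1 that was past 2-fold changed sign. This was the share of cDC2-like cells with a *Flt3* UMI, whose log2 ratio was -1.99 at 1000 UMIs per cell (1 of 29 *Postn*-DTR cells) and 0.18 at 2000 UMIs. Within the class of highest level among those compared, ratios moved for *Csf1* in ILC2-like cells (-2.42 thinned to 2000 UMIs, against -1.25), *Csf2* in ILC2-like cells (-0.46 for summed UMIs) and *Flt3* in cDC2-like cells (0.38 thinned, against -0.08). Ratios over all cells moved for all 8 genes. For summed UMIs they were -0.88 (*Csf1*), -1.38 (*Csf2*), -1.16 (*Csf1r*), -0.40 (*Csf2ra*), 0.40 (*Csf2rb*), 1.03 (*Csf3r*), -2.01 (*Flt3*) and -1.34 (*Kit*), and so changed sign for *Csf1*, *Csf1r* and *Csf2ra*. Without plasma-like cells they were 0.69 (*Csf1*), -0.057 (*Csf2*), 0.83 (*Csf1r*), 1.20 (*Csf2ra*), 1.77 (*Csf2rb*), 3.39 (*Csf3r*), -0.65 (*Flt3*) and 0.14 (*Kit*), which changed sign for *Kit*. Thinned to 2000 UMIs they were -0.10 (*Csf1r*), 0.40 (*Csf2ra*), 1.29 (*Csf2rb*), 2.50 (*Csf3r*) and -0.64 (*Kit*). With totals that left out immunoglobulin, T cell receptor, mitochondrial and ribosomal protein genes they were 0.56 (*Csf2ra*), 1.44 (*Csf2rb*), -0.78 (*Flt3*) and -0.19 (*Kit*), and without the highest doublet scores -0.17 (*Csf1*) and 0.69 (*Csf2ra*). The share of the UMIs of a gene, over both libraries, moved without the highest doublet scores for *Csf1* in mast/basophil-like cells (13.1%, from 17.7%), *Csf2* in ILC2-like cells (65.0%, from 60.1%), *Csf1r* in non-classical monocyte-like cells (27.9%, from 25.8%) and *Csf3r* in mature neutrophil-like cells (56.9%, from 52.4%). With the 8 genes among the features or at resolution 1.6, that of *Csf1r* was 16.2% and 15.8%, and that of *Flt3* in cDC2-like cells 8.78% under both (from 27.0%). The cause was not tested.

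Counts of classes in one direction, added after the data were seen, stayed within 1.5 times: *Csf1r* was lower in 5 or 6 of 7 classes (4 of 5 where 2 could not be compared), and *Csf2rb* higher in 10 or 11 of 13 (9 of 11 where 2 could not be compared). Of the 58 pairs of gene and class, 11 changed sign under at least 1 of these settings. Of the 12 past 2-fold, 7 stayed past it under each setting that gave a value, 5 did not, and 2 of these changed sign (*Csf1r* in plasma-like cells and *Kit* in monocyte-like cells in cycle). Another 11 pairs passed 2-fold under at least 1 setting. Among the genes most like a member, 19 of 24 were shared when the offset was 0.2. Precision is limited by cell number, with 46 WT mature neutrophil-like cells and 29 *Postn*-DTR cDC2-like cells, and by depth. Differences between mice could not be measured.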
